A study of Cucurbita pepo with 23 samples.

Results

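The sugar carriers of the vacuole and the plasma membrane in the nectary of squash (*Cucurbita pepo*) are described here, stage by stage, in female and male flowers. They were taken by their annotation alone, as the genes described as sugar transporter ERD6-like, monosaccharide-sensing protein, sugar transport protein, sucrose transport protein, hexose transporter or polyol transporter, with the bidirectional carriers left out. The rule found 12 of the 8861 genes in the table, and all 12 passed the filter on low values. No gene is described as a hexose transporter. RNA came from hand-dissected nectaries of Crookneck Yellow Squash, with no treatment and no genotype other than the cultivar, taken 24 hr before anthesis (−24 hr, closed buds), at −15 hr, at 0 hr (open flowers secreting nectar) and at +9 hr (closed flowers). Each sex and stage has 3 libraries, and female nectaries at −15 hr have 2, which gives 23 libraries in 8 groups. The sample labels place the second and last stages at −12 and +12 hr, and the hours of the published text are used. Nothing states whether the libraries of a group came from separate plants, so p-values measure the spread between these libraries, which may be technical.

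Sugars that a cell takes up, makes or stores cross membranes through carriers. In *Arabidopsis*, the monosaccharide-sensing proteins, also called tonoplast sugar transporters, load sugars into the vacuole in exchange for protons, and several ERD6-like proteins release glucose from it. Sugar transport proteins and polyol transporters bring monosaccharides or polyols into the cell across the plasma membrane together with protons, and SUC-type carriers do this for sucrose. In nectaries, starch stored before anthesis is broken down, and the sugar leaves the cell through SWEET carriers, which let sugar pass in both directions. The role of each squash protein is inferred from its name and was not measured.

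The libraries differed in nectary markers before any carrier is considered. Values are upper-quartile normalized read numbers of a melon gene, called normalized reads below, with sums of 9269760 to 16139522 per library. The number of reads behind them is unknown, gene lengths are not known, and levels are therefore compared between groups and not between genes. Nectary markers were sought by their names in the melon descriptions, and the names CRABS CLAW and CWINV4, also sought, matched no description. The bidirectional carrier NEC1-like (XM_008443590.1), a SWEET of nectaries, had 136, 220 and 165 normalized reads in the female −24 hr libraries, against 292544 and 188998 at −15 hr. MYB305 (XM_008445303.1), a transcription factor of nectaries, had 37, 64 and 37 in the same female −24 hr libraries and 58835 and 48362 at −15 hr. The third matched marker, MYB305-like (XM_008459314.1), was listed at 0 or 1 in all libraries of both sexes up to 0 hr, and had 60, 908 and 492 in female and 7, 2 and 2 in male libraries at +9 hr. The 3 markers together summed to 173 to 284 in female nectaries at −24 hr and to 86134 to 198545 in male nectaries at the same hour. Sums at +9 hr were 1795 to 30671 in female libraries, and male libraries had 10792 to 41063. The female −24 hr libraries thus carried few transcripts of NEC1-like and MYB305, and every comparison with them has this difference beside it. The paper describes MYB305 as induced by stage, low at −24 hr and highest at 0 hr. The parts of stage and of nectary content in these low values were not tested. In bulk tissue, fewer cells of a type and less RNA per cell cannot be told apart.

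Every one of the 12 carriers differed among the 8 groups by limma's moderated F test at an adjusted p under 0.05, as did 96.2% of all genes. The ratio of the highest to the lowest group mean had a median of 146 over the carriers and 6.55 over all genes, and ranged from 2.49 for sucrose transport protein SUC3 to 2937 for ERD6-like 16 (XM_008440551.1). Over the 6 steps from a stage to the next, a gene is called where the adjusted p is under 0.05 and the change at least 2-fold on the log2(value + 1) scale. By this rule, 35 of the 72 tests of carriers were called (48.6%), against 40.1% of the tests of all genes, so the share of calls was near that of the whole table. Each of the 12 carriers was called in at least 1 step, and the share of all genes with such a call was not counted.

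**Figure D1:**
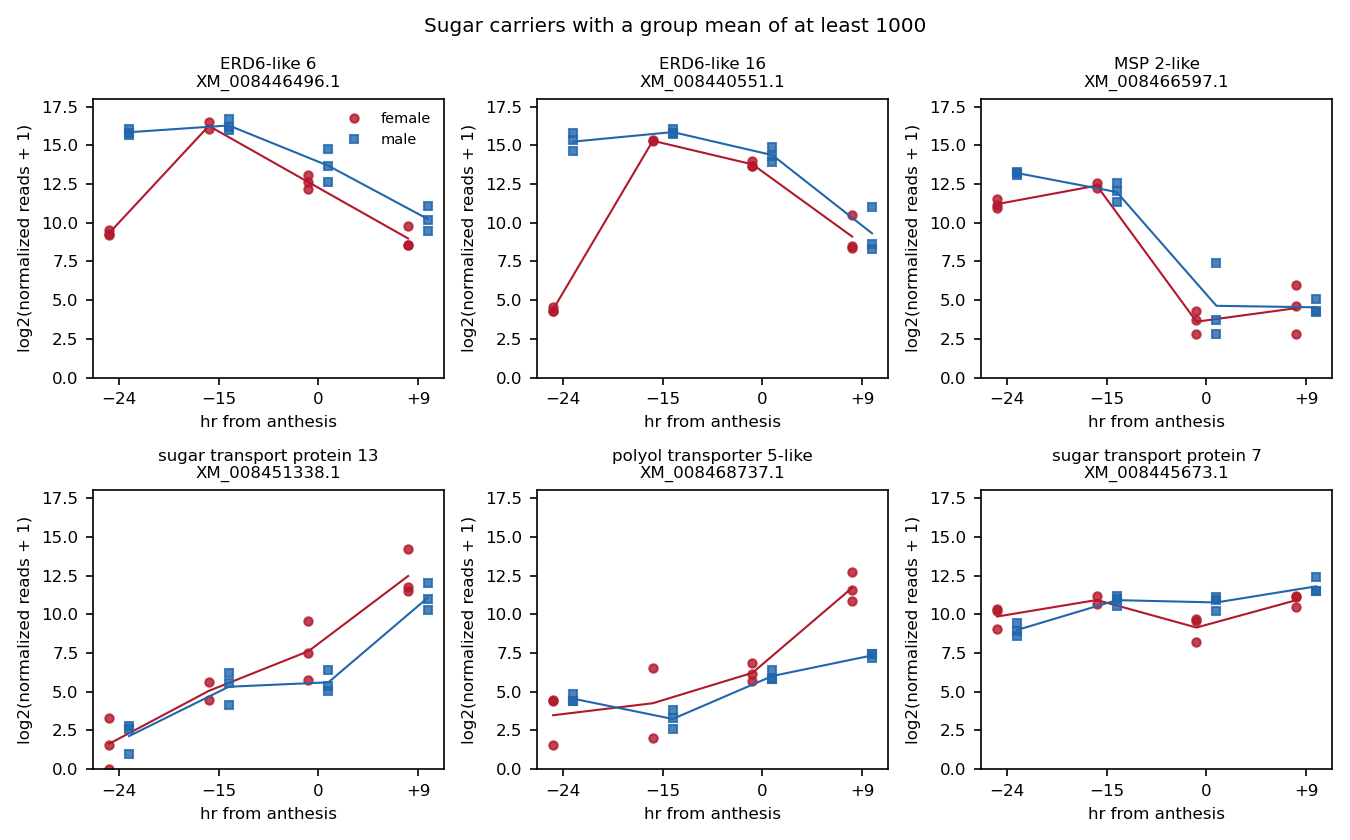
Normalized reads of the 6 carriers with a group mean of at least 1000, as log2(value + 1), against hours from anthesis. Each point is 1 library (circles, female; squares, male) and lines join the group means on this scale. Both ERD6-like genes are low at −24 hr in female nectaries (595 to 740 and 19 to 23 normalized reads) and high in male nectaries, and monosaccharide-sensing protein 2-like falls in both sexes between −15 and 0 hr.

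Of the tonoplast importer genes, 1 was high before anthesis and fell at it, and the other was lowest at −15 hr. Monosaccharide-sensing protein 2-like (XM_008466597.1) had 1954, 2245 and 3001 normalized reads in female nectaries at −24 hr and 4774 and 6103 at −15 hr. At 0 hr the female libraries had 19, 12 and 6, and at +9 hr 6, 24 and 63. In male nectaries, the values were 8779, 10030 and 9657 at −24 hr and 6164, 2559 and 4205 at −15 hr. Male libraries had 6, 12 and 168 at 0 hr and 32, 18 and 19 at +9 hr. Over all genes, the libraries of neighbouring stages did not overlap for 67.5%, 77.6% and 61.3% in the successive female steps. In the male steps these shares were 34.6%, 69.6% and 67.7%. For this carrier, no library from before anthesis overlapped one from 0 or +9 hr in either sex, and the male value of 168 stood apart from the others at 0 hr. From −15 to 0 hr it fell, with a log2 fold change of −8.79 in female (standard error, SE, 0.93, adjusted p = 3.2e-07) and −7.35 in male nectaries (SE 0.83, adjusted p = 6.3e-07). The steps on either side of it were not called in either sex, with log2 fold changes of 1.19 and −1.23 from −24 to −15 hr and of 0.87 and −0.10 from 0 to +9 hr (female and male).

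Its paralog, monosaccharide-sensing protein 2 (XM_008449943.1), had its lowest values at −15 hr in both sexes, with 24 and 54 normalized reads in female and 18, 15 and 13 in male libraries. The other stages held 101 to 252 in female and 81 to 330 in male libraries, so the −15 hr libraries overlapped none of the others. From −24 to −15 hr it fell by 3.37 on the log2 scale in male nectaries (SE 0.36, adjusted p = 1.4e-05). The female change was −1.75 (SE 0.40, adjusted p = 0.0015), and without female −15 hr replicate 1 it was −1.18 (adjusted p = 0.063) and with quantile normalization −0.77 (adjusted p = 0.11). From −15 to 0 hr it rose, by a log2 fold change of 2.29 in female (SE 0.40, adjusted p = 7.3e-05) and 2.84 in male nectaries (SE 0.36, adjusted p = 2.1e-06). In male nectaries it rose again from 0 to +9 hr (1.13, adjusted p = 0.0096), a change of 0.86 under median-of-ratios scaling (adjusted p = 0.034), 0.45 with quantile normalization (adjusted p = 0.27), 0.88 without male 0 hr replicate 2 (adjusted p = 0.061) and 0.94 without male +9 hr replicate 1 (adjusted p = 0.05), which are under 2-fold. Both genes match the same *Arabidopsis* gene, tonoplast monosaccharide transporter 2, in the deposited annotation. Over the 8 group means of log2(value + 1), their Pearson correlation was −0.58, a description of groups that share libraries and scaling.

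Among the ERD6-like genes, the group of the vacuolar glucose exporters, ERD6-like 6 and ERD6-like 16 with group means above 1000 had their highest means at −15 hr in both sexes and fell at anthesis and again after it. ERD6-like 6 (XM_008446496.1) had 607, 740 and 595 normalized reads in female nectaries at −24 hr, 92029 and 66664 at −15 hr, 4648, 8640 and 6216 at 0 hr, and 893, 380 and 380 at +9 hr. In male nectaries the values were 57523, 52418 and 68000 at −24 hr, 64389, 106139 and 74645 at −15 hr, 6256, 12993 and 27851 at 0 hr, and 711, 2151 and 1132 at +9 hr. No neighbouring stages overlapped in female nectaries, whereas in male nectaries the values at −24 and −15 hr did. The gene rose from −24 to −15 hr in female nectaries by a log2 fold change of 6.92 (SE 0.51, adjusted p = 8.2e-09), while the male change of 0.44 was not called (adjusted p = 0.69). From −15 to 0 hr it fell by 3.64 in female (SE 0.51, adjusted p = 7.7e-06) and by 2.61 in male nectaries (SE 0.46, adjusted p = 7.7e-05). It fell further after anthesis, with changes of −3.64 (adjusted p = 2.3e-06) and −3.45 (adjusted p = 2.9e-06) from 0 to +9 hr and an SE of 0.46 for each. These calls stood under every alternative that was run.

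ERD6-like 16 (XM_008440551.1), whose closest *Arabidopsis* match in the deposited annotation is a major facilitator protein (AT2G48020), had 19, 23 and 19 normalized reads in the female −24 hr libraries. Female values were 39739 and 40717 at −15 hr, 12759, 16589 and 12912 at 0 hr, and 1429, 325 and 360 at +9 hr. Male nectaries had 56124, 25186 and 41017 at −24 hr, 54037, 68993 and 56145 at −15 hr, 15312, 20464 and 30196 at 0 hr, and 310, 2068 and 402 at +9 hr. The female −24 hr libraries lay below all others of either sex, and the −15 hr libraries overlapped none of 0 hr. The female change from −24 to −15 hr was the largest of all 72 tests of steps (log2 fold change of 10.89, SE 0.62, adjusted p = 2.5e-10), and the male change was not called (0.62, adjusted p = 0.63). After anthesis, from 0 to +9 hr, it changed by −4.66 in female (adjusted p = 1.4e-06) and −5.05 in male nectaries (adjusted p = 3.2e-07), each with an SE of 0.56. The smaller changes at anthesis, −1.52 in female (adjusted p = 0.04) and −1.49 in male nectaries (adjusted p = 0.027) from −15 to 0 hr, were also called. Under median-of-ratios scaling the log2 fold changes were −1.24 (adjusted p = 0.1) and −1.19 (adjusted p = 0.083), and leaving out any 1 of the 5 female libraries of these stages gave adjusted p-values of 0.05 to 0.13. With a replicate block the female change was −1.46 (adjusted p = 0.064), and 9 of 32 alternatives lost the female call. In male nectaries the call was lost without −15 hr replicates 2 or 3 or 0 hr replicates 1 or 2 (adjusted p of 0.071, 0.051, 0.1 and 0.06).

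The rise of both genes in female nectaries moved with NEC1-like and MYB305, which were low in the female −24 hr libraries and high in all libraries of −15 and 0 hr, while MYB305-like stayed at 0 or 1. At +9 hr NEC1-like and MYB305 were lower together with the ERD6-like genes, whereas MYB305-like was higher in female libraries. Of the female +9 hr libraries, replicate 1, with 22863 normalized reads of NEC1-like against 368 and 951 in the others, had the highest values of ERD6-like 6 (893) and ERD6-like 16 (1429) and the lowest of MYB305-like (60). The part of nectary content in these changes was not tested. In the female 0 hr libraries NEC1-like had 269060 to 356879 and MYB305 90598 to 104104. From −15 to 0 hr 0 of the 3 nectary markers had a called change in either sex (51.6% of all genes in female and 47.2% in male nectaries). MYB305-like was at 0 or 1 in this step, so the count rests on NEC1-like and MYB305. MYB305 was nevertheless higher at 0 hr without overlap. Female libraries had 48362 and 58835 at −15 hr, and male libraries had 49533 to 69687 and then 114828 to 128670.

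**Figure D2:**
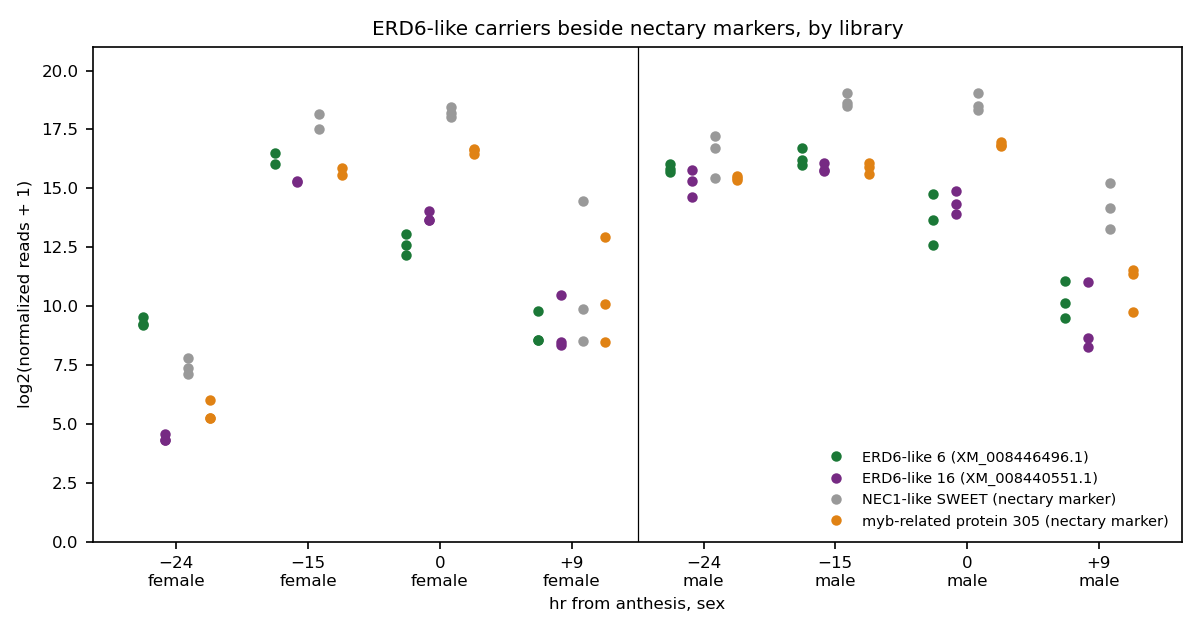
Normalized reads of ERD6-like 6, ERD6-like 16 and the nectary markers NEC1-like and MYB305, as log2(value + 1), by sex and hours from anthesis. Each point is 1 library. All 4 genes are at 740 normalized reads or less in the female −24 hr libraries. From −15 to 0 hr neither marker has a called change (51.6% of all genes do in female and 47.2% in male nectaries). MYB305 is nevertheless higher at 0 hr without overlap in both sexes.

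The remaining ERD6-like genes did not exceed 1205 normalized reads in any library and followed other courses. The second ERD6-like 6 (XM_008468337.1) had group means of 31.3 to 59.7 in female nectaries up to anthesis and its highest mean at +9 hr in both sexes. It had 44, 80 and 55 normalized reads in female nectaries at 0 hr and 222, 344 and 284 at +9 hr, and male libraries had 33, 52 and 72 and then 503, 608 and 397, with no overlap. It rose in this step by 2.25 log2 units in female (adjusted p = 0.0021) and 3.29 in male nectaries (adjusted p = 6.1e-05), each with an SE of 0.57. The second ERD6-like 16 (XM_008460285.1) varied between libraries of a group, with 4, 437 and 16 in female nectaries at 0 hr and 7, 218 and 565 at +9 hr, against 1205, 1069 and 468 at −24 hr. In male nectaries it fell from 171, 103 and 133 at −15 hr to 3, 9 and 7 at 0 hr, by 4.29 on the log2 scale (SE 1.44, adjusted p = 0.015), and the adjusted p was 0.055 without male 0 hr replicate 1 and 0.08 with quantile normalization. ERD6-like 5 (XM_008452469.1) was highest in the female −24 hr libraries, with 179, 343 and 265, and had 7 to 97 in every other library. Its change to 19 and 97 at −15 hr (−2.52 on the log2 scale, adjusted p = 0.014) was −1.38 without female −15 hr replicate 1 (adjusted p = 0.28) and −1.75 with quantile normalization (adjusted p = 0.19).

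**Figure D3:**
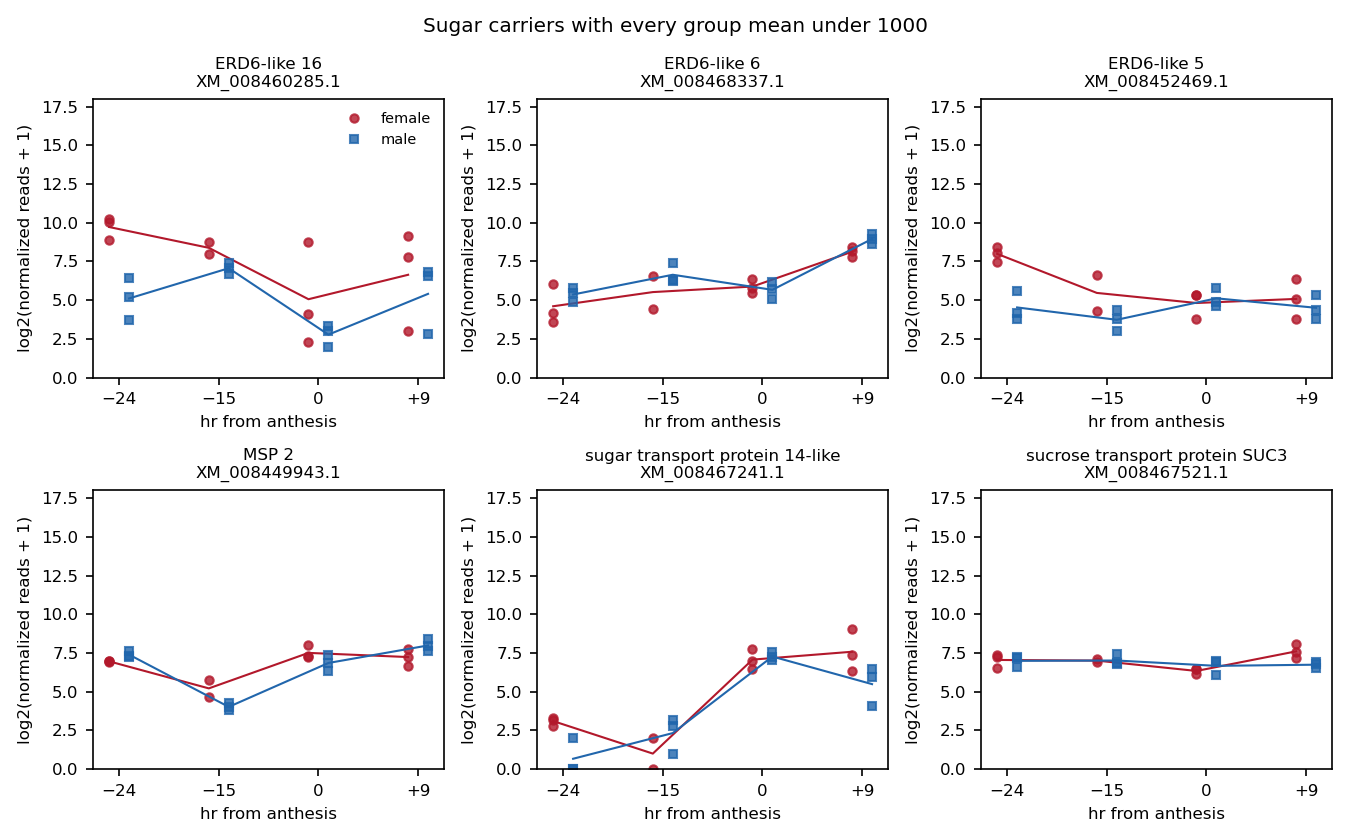
Normalized reads of the 6 carriers with every group mean under 1000, as log2(value + 1), against hours from anthesis, with 1 point per library and lines through the group means. Sugar transport protein 14-like goes from at most 9 normalized reads before anthesis to at least 16 from 0 hr on, and sucrose transport protein SUC3 stays between 68 and 266 in all libraries.

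The genes named sugar transport protein were low before anthesis and higher at or after it, sugar transport protein 7 excepted. Sugar transport protein 13 (XM_008451338.1), in *Arabidopsis* a high-affinity hexose importer, had 0, 9 and 2 normalized reads in female nectaries at −24 hr, 21 and 49 at −15 hr, 54, 182 and 749 at 0 hr, and 18757, 3425 and 2837 at +9 hr. Male values were 5, 6 and 1 at −24 hr, 17, 74 and 46 at −15 hr, 32, 40 and 84 at 0 hr, and 1246, 2010 and 4081 at +9 hr. All +9 hr libraries lay above all libraries of the earlier stages. After anthesis, from 0 to +9 hr, it rose by 4.85 log2 units in female (adjusted p = 0.00019) and 5.48 in male nectaries (adjusted p = 5.1e-05), each with an SE of 0.94. The earlier rises in female nectaries were called (3.42, adjusted p = 0.012, and 2.56, adjusted p = 0.04), as was the male rise from −24 to −15 hr (3.19, adjusted p = 0.048), but these rest on values under 100 in all libraries other than those of 182 and 749. The first was lost without female −24 hr replicate 1 (adjusted p = 0.066) or −15 hr replicate 2 (adjusted p = 0.11), or with a pseudocount of 10 (1.70, adjusted p = 0.1). The second was lost without female −15 hr replicates 1 or 2 or 0 hr replicates 2 or 3 (adjusted p of 0.23, 0.058, 0.065 and 0.2). The male call was lost under 18 of 32 alternatives, where the adjusted p reached 0.23.

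Sugar transport protein 7 (XM_008445673.1) had values of at least 294 in every library and its group means differed by at most 7.19-fold. Female nectaries had 528, 1158 and 1290 normalized reads at −24 hr, 1624 and 2313 at −15 hr, 751, 812 and 294 at 0 hr, and 2274, 1411 and 2205 at +9 hr. In male nectaries the values were 474, 394 and 691, then 1487, 2335 and 2053, then 1205, 2232 and 1949, and at +9 hr 2850, 5417 and 2947. Female nectaries thus had a dip at 0 hr, which male nectaries did not show as a called change. It fell by 1.78 from −15 to 0 hr (SE 0.45, adjusted p = 0.002) and rose by 1.77 from 0 to +9 hr (SE 0.40, adjusted p = 0.00079) in female nectaries, and the male change from −15 to 0 hr was −0.15 (SE 0.40, adjusted p = 0.77). The difference between the sexes in that change was −1.63 (SE 0.60) and not called (adjusted p = 0.54). In male nectaries it rose from −24 to −15 hr by 1.93 (SE 0.40, adjusted p = 0.0057). The male rise from 0 to +9 hr, 1.04 (adjusted p = 0.03), was 0.76 under median-of-ratios scaling (adjusted p = 0.11), 0.78 without 0 hr replicate 1 (adjusted p = 0.14) and 0.74 without +9 hr replicate 2 (adjusted p = 0.15).

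Sugar transport protein 14-like (XM_008467241.1), named after an *Arabidopsis* carrier that takes up galactose, appeared at anthesis. It had 9, 8 and 6 normalized reads in female nectaries at −24 hr and 3 and 0 at −15 hr, then 213, 125 and 89 at 0 hr and 78, 166 and 529 at +9 hr. Male libraries had 0, 3 and 0 at −24 hr and 6, 8 and 1 at −15 hr, then 148, 187 and 130 at 0 hr and 86, 60 and 16 at +9 hr. The libraries from before anthesis did not overlap the later ones in either sex. At anthesis, from −15 to 0 hr, it rose by 6.07 log2 units in female (SE 0.89, adjusted p = 1.2e-05) and 4.94 in male nectaries (SE 0.79, adjusted p = 3.2e-05). With a pseudocount of 10 in place of 1, these were 3.66 and 3.48, both still called. The 13 markers of green tissue moved with it in this step, with sums of 149 and 2461 at −15 hr and 7845 to 8351 at 0 hr in female nectaries, and of 117 to 236 and 1663 to 6327 in male nectaries. Of these, 10 rose in female and 9 in male nectaries and 0 fell. In this step 20.5% of all genes rose and 31.1% fell in female nectaries, and 17.5% and 29.7% in male nectaries. The 3 phloem markers moved too, from sums of 223 to 261 to sums of 894 to 1639 in female libraries (3 rose) and from 264 to 324 to 632 to 848 in male libraries (1 rose). The 4 markers of lignifying vascular cells went from sums of 412 to 472 to 1088 to 1356 in female and from 344 to 458 to 715 to 1177 in male libraries, with 1 called higher and 1 lower in each sex. The part of these tissues in the result was not tested.

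Polyol transporter 5-like (XM_008468737.1), recorded in the annotation as a partial mRNA and named after an *Arabidopsis* carrier of polyols and hexoses, rose after anthesis in female nectaries. Female libraries had 20, 21 and 2 normalized reads at −24 hr, 3 and 90 at −15 hr, 70, 50 and 113 at 0 hr, and 2991, 1864 and 6714 at +9 hr. Male libraries had 20, 28 and 20, then 9, 5 and 13, then 55, 83 and 56, and at +9 hr 145, 168 and 172. Every +9 hr library lay above all earlier libraries of either sex, and the female +9 hr libraries all lay above the male ones. At +9 hr the libraries of the sexes did not overlap for 27% of all genes. In the step after anthesis, 0 to +9 hr, the female rise was 5.49 on the log2 scale (SE 0.84, adjusted p = 1.9e-05), and the male change was 1.33 (SE 0.84, adjusted p = 0.18). The male libraries of these stages did not overlap, and with the sexes fitted separately the male rise was called (adjusted p = 0.007). In male nectaries it rose from −15 to 0 hr by 2.77 (SE 0.84, adjusted p = 0.0079).

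Sucrose transport protein SUC3 (XM_008467521.1), the only gene described as a sucrose transport protein, varied least of the 12. Its values were 68 to 169 at every stage in male libraries and 69 to 266 in female libraries, and its coefficient of variation over all 23 libraries, 34.7%, was below the median of all genes, 65.9% (15.6% of all genes varied less). In female nectaries the libraries had 69, 86 and 86 normalized reads at 0 hr and 188, 145 and 266 at +9 hr, with no overlap. This rise was called (log2 fold change of 1.27, SE 0.32, adjusted p = 0.0018), and under median-of-ratios scaling it was 0.97, just under 2-fold, with an adjusted p of 0.0084 (0.38 and 0.27 with quantile normalization). None of the male steps was called for it.

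The carriers can be set out by step. From −24 to −15 hr in female nectaries 5 of 12 were called (41.7%; 37.9% of all genes), 3 higher and 2 lower, against 13.9% and 24% of all genes in these directions. In male nectaries 3 were called in this step (25%; 5.27% of all genes), 2 higher (1.57% of all genes) and 1 lower (3.7%). From −15 to 0 hr, 7 were called in female nectaries (58.3%; 51.6% of all genes), 3 higher (20.5%) and 4 lower (31.1%). The male numbers were also 7 (47.2% of all genes), 3 higher (17.5%) and 4 lower (29.7%). After anthesis, from 0 to +9 hr, 7 were called in female nectaries (49.4% of all genes), 5 higher (32%) and 2 lower (17.3%), and 6 in male nectaries (49% of all genes), 4 higher (31.4%) and 2 lower (17.6%). Apart from the male −24 to −15 hr step, where few genes of any kind were called, these shares were near those of all genes.

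The median carrier moved by a log2 fold change of 0.85 in the female step from −24 to −15 hr (median of all genes, −0.19), by −0.66 from −15 to 0 hr (−0.30) and by 1.07 from 0 to +9 hr (0.34). The male medians were 0.53 (−0.04), −0.25 (−0.31) and 0.56 (0.29). Under median-of-ratios scaling the medians of all genes were −0.08, −0.03 and 0.04 in female and −0.01, −0.01 and 0.02 in male nectaries. With quantile normalization they were 0.01, −0.22 and −0.04 in female and 0.03, −0.16 and −0.12 in male nectaries. Under median-of-ratios scaling the share of higher genes among those called went from 39.8% to 49.8% at the female step from −15 to 0 hr. At the male step it went from 37.1% to 49.1%. At the step from 0 to +9 hr it went from 64.9% to 53.1% in female and from 64.1% to 53.9% in male nectaries. With quantile normalization these shares were 43.0%, 45.0%, 48.3% and 48.9%, in the same order. At the female step from −24 to −15 hr the share went from 36.6% to 51.1% with quantile normalization. No called change of a carrier changed its direction under either other scaling.

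**Figure D4:**
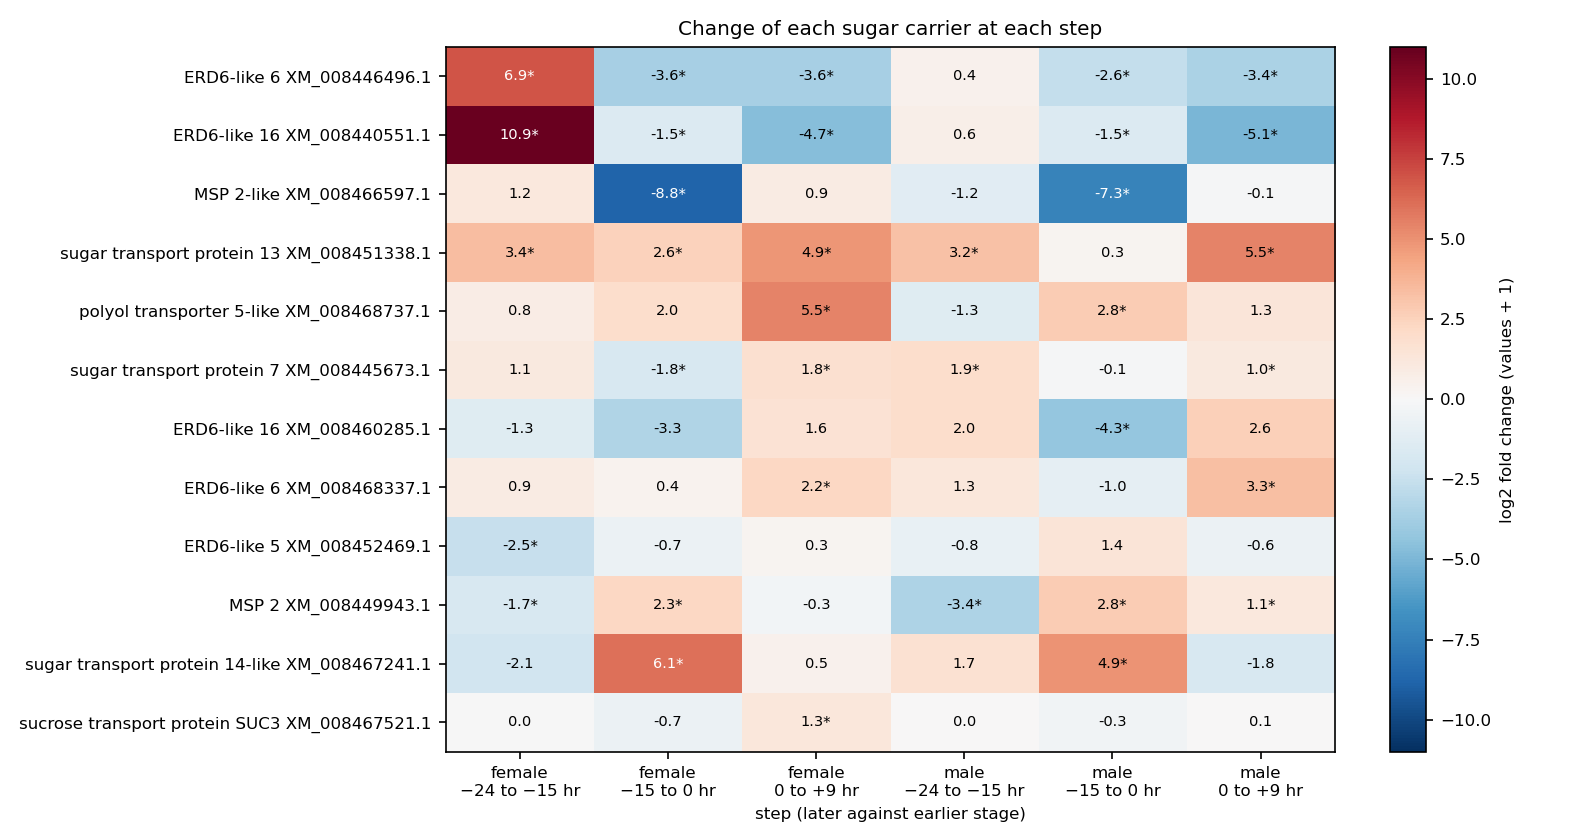
Log2 fold change of each carrier (rows) at each step from a stage to the next (columns, female then male), on the log2(value + 1) scale, with red for higher and blue for lower at the later stage. An asterisk marks an adjusted p under 0.05 with at least a 2-fold change by limma. The largest change is the rise of ERD6-like 16 (XM_008440551.1) in female nectaries from −24 to −15 hr, and no carrier is marked in opposite directions in the sexes at any step.

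Calls shared by the sexes were in the same direction. How many of all genes were called in both sexes was not counted, so the counts below have no share beside them. At the step from −15 to 0 hr, 5 carriers were called in both sexes, monosaccharide-sensing protein 2-like, ERD6-like 6 and ERD6-like 16 lower and monosaccharide-sensing protein 2 and sugar transport protein 14-like higher. After anthesis, 5 were called in both, sugar transport proteins 7 and 13 and the second ERD6-like 6 higher and the high-valued ERD6-like 6 and 16 lower. From −24 to −15 hr, 2 were, sugar transport protein 13 higher and monosaccharide-sensing protein 2 lower. In female nectaries 5 carriers had their highest stage mean at +9 hr (27.3% of all genes) and 4 at −15 hr (17%), and the same numbers held in male nectaries (32.2% and 21.4% of all genes). The stage of the highest mean was shared by both sexes for 5 of the 12, and the share of all genes was not counted.

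The stages at −24 and 0 hr were collected at about the same time of day, as were those at −15 and +9 hr, so these comparisons hold the clock time roughly constant. From −24 to 0 hr, 8 of 12 carriers were called in female nectaries (63.5% of all genes), 5 higher (25.6%) and 3 lower (38%), and 5 in male nectaries (48.7% of all genes), 3 higher (17.5%) and 2 lower (31.1%). ERD6-like 6 rose in female nectaries (log2 fold change of 3.29, adjusted p = 2.2e-06) and fell by 2.17 in male nectaries (adjusted p = 0.00044), each with an SE of 0.46, and the difference between these changes was not tested. Monosaccharide-sensing protein 2-like changed by −7.60 in female (adjusted p = 1.1e-07) and −8.57 in male nectaries (adjusted p = 9.9e-08), each with an SE of 0.83. Monosaccharide-sensing protein 2, low at −15 hr, had changes of 0.55 (adjusted p = 0.17) and −0.54 (adjusted p = 0.2) that were not called. From −15 to +9 hr, 8 carriers were called in each sex (47.5% of all genes in female, 43.6% in male nectaries), 5 higher (25.5% and 24.2% of all genes) and 3 lower (21.9% and 19.4%). The share of higher genes among those called was 53.8% and 55.5% here, and 42.9% and 45.3% with quantile normalization; from −24 to 0 hr in male nectaries it was 36.0%, and 48.9% with median-of-ratios scaling. The same 5 were higher in both, namely monosaccharide-sensing protein 2, the second ERD6-like 6, polyol transporter 5-like and sugar transport proteins 13 and 14-like, and the same 3 were lower, namely monosaccharide-sensing protein 2-like and the high-valued ERD6-like 6 and 16. Of these calls, that of the second ERD6-like 6 in female nectaries (2.61) was lost without −15 hr replicate 1 (1.54, adjusted p = 0.091), and that of sugar transport protein 14-like in male nectaries (3.16) with quantile normalization (1.24, adjusted p = 0.22).

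Female and male nectaries differed in these carriers mainly at −24 hr. At that stage 6 of 12 were called (50%; 41.2% of all genes), with 3 higher in female nectaries (24.6% of all genes) and 3 higher in male nectaries (16.6%). Higher in female nectaries were 59.7% of all genes called, and 49.6% with quantile normalization. ERD6-like 16 (XM_008440551.1) differed by −10.83 log2 units, female minus male (SE 0.56, adjusted p = 5e-11), with means of 20.3 ± 2.31 in female and 40776 ± 15470.4 in male nectaries (mean ± SD, n = 3 each). ERD6-like 6 (XM_008446496.1) was lower by 6.51 (SE 0.46, adjusted p = 2.4e-09), with means of 647 ± 80.5 and 59314 ± 7944. Higher in female nectaries were ERD6-like 5, with 262 ± 82 against 26 ± 19.2 (log2 difference of 3.46, SE 0.71, adjusted p = 0.00046), and the second ERD6-like 16, with 914 ± 392 against 44.3 ± 37.2 (4.61, SE 1.44, adjusted p = 0.011). The call of the latter was lost without male −24 hr replicate 3 (adjusted p = 0.054). Sugar transport protein 14-like, also called higher in female nectaries (2.43, adjusted p = 0.014), differed between values under 10 and was lost with a pseudocount of 10 (0.69, adjusted p = 0.28) or without male −24 hr replicates 1 or 3 (adjusted p of 0.061 and 0.059). Monosaccharide-sensing protein 2-like was lower in female nectaries by 2.00 log2 units with an adjusted p of 0.049 by limma. This call was lost in 21 of 30 alternatives (adjusted p up to 0.12). Its libraries did not overlap, as was so for 67% of all genes in this comparison. The low nectary markers of the female −24 hr libraries stand beside all of these differences.

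Of the later stages, −15 and 0 hr gave no called carrier between the sexes with limma (0.135% and 0.248% of all genes). Of all genes, 0.0903% and 0.181% were called higher and 0.0451% and 0.0677% lower. An unadjusted p under 0.05 was found for 2 and 3 carriers, and the share of all genes at this threshold was not counted. Sugar transport protein 7 had the lowest adjusted p at 0 hr, 0.067, with 619 ± 283 in female and 1795 ± 530.5 in male nectaries (n = 3 each), and it was called without female 0 hr replicate 1 (adjusted p = 0.032) or male 0 hr replicate 1 (adjusted p = 0.04). At +9 hr 1 carrier was called (14.7% of all genes), polyol transporter 5-like, higher in female nectaries (8.36% of all genes, and 6.36% lower) by 4.37 log2 units (SE 0.84, adjusted p = 0.0019), with 3856 ± 2538 against 162 ± 14.6 normalized reads. The female +9 hr libraries also held more variable green tissue markers, with sums of 2861 to 17469 against 8181 to 9176 in male libraries, and the highest sum was in replicate 3, which also had the highest value of this gene (6714). The part of green tissue was not tested. Without that replicate the sex difference was 3.86 (adjusted p = 0.013).

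**Figure D5:**
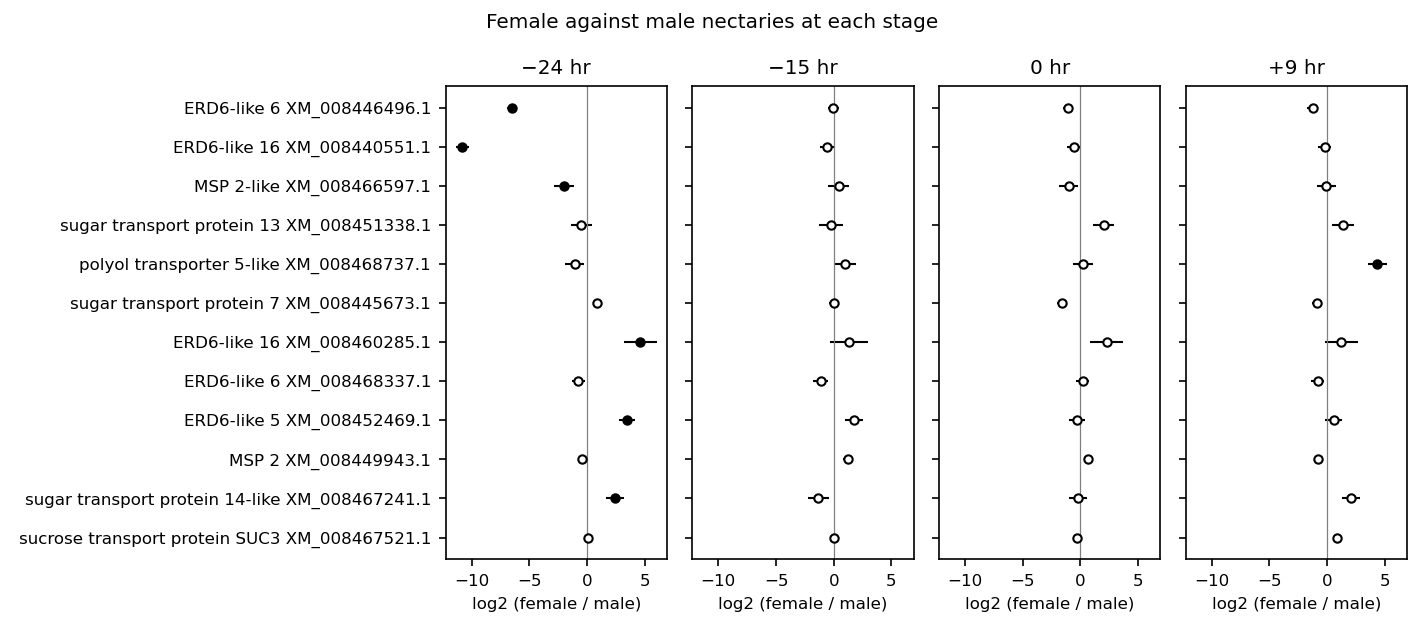
Female against male difference of each carrier at each stage, as the log2 fold change of (value + 1), with bars for the SE and filled points for an adjusted p under 0.05 with at least a 2-fold difference. At −24 hr 6 points are filled, from −10.83 to 4.61, at −15 and 0 hr none is, and at +9 hr polyol transporter 5-like is.

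The change itself was compared between the sexes for each step. From −24 to −15 hr 4 carriers differed (33.3%; 28% of all genes), 3 with a positive difference (12.3%) and 1 with a negative one (15.7%). They were ERD6-like 16 (XM_008440551.1) by 10.27 log2 units (SE 0.83, adjusted p = 1e-07), ERD6-like 6 (XM_008446496.1) by 6.49 (SE 0.68, adjusted p = 2.9e-06), monosaccharide-sensing protein 2 by 1.63 (SE 0.53, adjusted p = 0.027) and sugar transport protein 14-like by −3.76 (SE 1.19, adjusted p = 0.022), as female minus male change. The differences of both ERD6-like genes stood under every alternative that was run. Monosaccharide-sensing protein 2 was not called without female −15 hr replicate 2 (adjusted p = 0.2), male −24 hr replicate 1 (0.064) or male −15 hr replicate 3 (0.058). Sugar transport protein 14-like, which rests on values of 9 or less, had a difference of −1.06 with a pseudocount of 10 (adjusted p = 0.33), and of −2.76 without female −15 hr replicate 2 (adjusted p = 0.14). It was also lost without male −24 hr replicates 1 or 3 (adjusted p of 0.053 for each) or male −15 hr replicate 2 (0.054). From −15 to 0 hr no carrier was called with limma (0.0113% of all genes). An unadjusted p under 0.05 was found for 1 carrier, and the share of all genes at this threshold was not counted. For the change after anthesis polyol transporter 5-like was called (8.33%; 7.18% of all genes, 2.57% with a positive difference), with a difference of 4.16 (SE 1.19, adjusted p = 0.039). The adjusted p was 0.051 to 0.1, and the difference at least 3.66, under the 11 alternatives that lost the call, which were the replicate block and leaving out any female or male 0 hr library, any male +9 hr library or female +9 hr replicate 3.

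Genes that carry the same name in the annotation followed different courses over the groups. The Pearson correlation over the 8 group means of log2(value + 1) was −0.40 between the ERD6-like 6 genes and −0.47 between the ERD6-like 16 genes, while it was 0.91 between ERD6-like 6 (XM_008446496.1) and ERD6-like 16 (XM_008440551.1). Sugar transport protein 13 correlated at 0.90 with the second ERD6-like 6 and at 0.87 with polyol transporter 5-like, and the lowest value, −0.97, was between monosaccharide-sensing protein 2-like and sugar transport protein 14-like. These describe 8 means that share libraries and scaling. Reads were assigned through contigs matched to melon genes, so reads of close copies can have been split or joined between these entries.

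Outside the family, the genes most like ERD6-like 16 (XM_008440551.1) over the 8 group means, of 3804 searched, were a probable phosphatase (XM_008467896.1), short-chain dehydrogenase TIC 32 (XM_008444344.1) and vacuolar protein sorting-associated protein 24 homolog 1 (XM_008464778.1), each with a correlation of 0.99. They were followed by chaperone protein dnaJ 10-like (XM_008462747.1, 0.98) and cyclin-dependent kinase F-4-like (XM_008450374.1, 0.98). All 5 had their lowest group mean in female nectaries at −24 hr, as low as 16.7 for TIC 32, whose highest, 25356, was in female nectaries at −15 hr. For monosaccharide-sensing protein 2-like, they were chorismate synthase (XM_008458250.1, 0.99), CASP-like protein At2g28370 (XM_008464359.1, 0.99), the beta and alpha subunits of casein kinase II (XM_008467684.1, 0.99, and XM_008442136.1, 0.99) and a subunit of the pyruvate dehydrogenase complex (XM_008458345.1, 0.99). These 5 had their highest group mean at −24 or −15 hr and their lowest at 0 hr.

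Proton pumps build the gradient that such carriers use. Of 17 genes for vacuolar proton pumps, 10 fell from 0 to +9 hr in each sex (17.3% of all genes in female and 17.6% in male nectaries). In this step 1 rose in female and 0 in male nectaries (32% and 31.4% of all genes). The medians were −1.27 and −1.14 against 0.34 and 0.29 for all genes. The pyrophosphate-energized pump (XM_008445704.1), which acidifies the vacuole, fell from 29340 ± 8142 to 4257 ± 1360 in female (a change of −2.80, adjusted p = 4.1e-06) and from 43838 ± 15429 to 5036 ± 1953 in male nectaries (−3.13, adjusted p = 8e-07, n = 3 each). Subunits G1-like (XM_008444454.1) and E (XM_008451922.1) of the V-type ATPase fell in this step in both sexes, with log2 fold changes of −1.44 and −2.02 in female and −1.63 and −1.60 in male nectaries. From −15 to 0 hr 4 of the 17 fell in female (31.1% of all genes) and 2 in male nectaries (29.7%), the pyrophosphate-energized pump among them. In either sex 0 rose (20.5% of all genes in female and 17.5% in male nectaries), with medians of −0.51 and −0.16. Of the 5 plasma membrane proton pumps, plasma membrane ATPase 4 (XM_008453341.1) rose in female nectaries from −24 to −15 hr, from 3060 ± 420 to 67395 ± 27337 (4.41, adjusted p = 3.6e-08, n = 3 and 2), as did ATPase 11 (XM_008461072.1, 3.58, adjusted p = 1.6e-05). Plasma membrane ATPase 4-like (XM_008446867.1) rose from −15 to 0 hr in female nectaries (3.29, adjusted p = 0.0068), and ATPase 11 fell by 1.31 in the same step (adjusted p = 0.029). Over the list, 2 rose and 1 fell from −24 to −15 hr in female nectaries (13.9% and 24% of all genes). In male nectaries 0 rose and 0 fell (1.57% and 3.7% of all genes). The list medians were −1.16 in female and 0.28 in male nectaries (−0.19 and −0.04 for all genes). From 0 to +9 hr 1 fell in female (17.3% of all genes) and 2 in male nectaries (17.6%). The medians were −0.58 and −1.01 (0.34 and 0.29 for all genes).

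The other routes for sugar were read in the same way. Of the 4 SWEET carriers, NEC1-like fell from 0 to +9 hr, with changes of −7.26 in female (adjusted p = 2.9e-06) and −4.40 in male nectaries (adjusted p = 0.00043), whereas SWEET1 (XM_008443341.1), a hexose carrier in *Arabidopsis*, rose (5.80 and 10.17, adjusted p = 3e-05 and 3.5e-08). SWEET4-like (XM_008453693.1) rose from −15 to 0 hr (2.56 and 1.72, adjusted p = 0.0093 and 0.045). A further list held 8 plastid carriers of maltose, glucose 6-phosphate or triose phosphate, whose direction of transport was not measured. Among them, maltose excess protein 1 (XM_008464630.1), which releases maltose from starch breakdown, fell from −15 to 0 hr in both sexes. In female nectaries it went from 39518 ± 1056 (n = 2) to 6680 ± 1093 (n = 3), a change of −2.58 (adjusted p = 6.8e-06). In male nectaries it fell by 2.00 (adjusted p = 3e-05). In that step 4 of the 8 fell and 1 rose in female nectaries (31.1% and 20.5% of all genes), and 3 fell and 3 rose in male nectaries (29.7% and 17.5%), with medians of −1.18 and −1.17 (−0.30 and −0.31 for all genes). Of these 8, glucose-6-phosphate/phosphate translocator 2-like (XM_008456303.1) fell by 1.24 in female nectaries (adjusted p = 0.0017), and glucose-6-phosphate/phosphate translocator 2 (XM_008441749.1) had means of 2233 ± 332 (n = 2) and 619 ± 271 (n = 3), a change that was not called (adjusted p = 0.14).

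Of 9 invertases, which split sucrose into hexoses, 8 rose from −24 to −15 hr in female nectaries (13.9% of all genes) and 2 in male nectaries (1.57%). From 0 to +9 hr 6 fell in each sex (17.3% and 17.6% of all genes), while 1 rose in female and 2 in male nectaries (32% and 31.4%). Their medians were 2.80 and 0.50 in the first step (−0.19 and −0.04 for all genes) and −2.20 and −2.32 in the last (0.34 and 0.29). Invertase 2 (FJ231520.1), the cell wall enzyme CWINV3-like (XM_008446238.1) and the neutral invertase CINV1 (XM_008448549.1) rose in the first female step by 4.11, 5.54 and 3.46 (adjusted p of 5.7e-07, 2.5e-06 and 1e-05). The 2 female −15 hr libraries of CWINV3-like differed widely, with a mean of 37977.5 ± 34507.5. Of the 8 other sugar carriers, 4 fell from −15 to 0 hr in each sex (31.1% of all genes in female and 29.7% in male nectaries). In this step 0 rose (20.5% and 17.5% of all genes), with medians of −0.80 and −0.78 (−0.30 and −0.31 for all genes). Plastidic glucose transporter 4 (XM_008463334.1) had changes of −3.27 in female (adjusted p = 9.2e-07) and −1.99 in male nectaries (adjusted p = 5.9e-05), and probable inositol transporter 2 (XM_008446321.1) of −2.55 and −1.66 (adjusted p = 0.0016 and 0.015). Sugar carrier protein C-like (XM_008443725.1), which resembles the hexose carriers of the plasma membrane, rose from 0 to +9 hr in both sexes (8.07 and 4.09, adjusted p = 2.9e-05 and 0.01). Its means went from 8.67 ± 7.77 to 2845 ± 3239 in female nectaries (n = 3 each). Male means went from 3.33 ± 2.52 to 195 ± 300 (n = 3 each), so the SD at +9 hr exceeded the mean in both sexes.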

How the data were processed

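Members and gene lists were chosen by words of the annotation, with earlier results of these data known. Genes named beyond the members are the 3 of each list with the highest group mean and the 5 most like 2 members, by rules set for them. Calcium pumps and UDP-sugar carriers that the words also matched were left out of the lists after the data were seen. The authors assembled reads with Trinity, matched contigs to melon genes with blastn (E-value cutoff of 0.00001), upper-quartile normalized the counts and deposited them rounded to whole numbers, so each value is a score and not a read count; the deposited means, ratios and p-values were not used. Sums per library ran from 9269760 to 16139522; raw depth, which sets the precision at low values, is unknown, and the sources used here do not name the counting tool. Because the values are not counts, log2(value + 1) was fitted in R 4.3.3 by limma 3.58.1, using 1 mean per sex and stage over all 23 libraries, a mean-variance trend and Benjamini-Hochberg adjustment over 8861 genes for each of 17 comparisons. The fit, with 19.6 degrees of freedom, was tested on simulated data. A fold change on this scale understates the change of low genes. Genes had to reach a value of 10 in 2 or more libraries, and 0 genes were lost by this. Alternatives were median-of-ratios scaling, quantile normalization, a pseudocount of 10, no filter, a mean of at least 100, sexes fitted separately, a replicate block, no trend, geometric means, and leaving out each library. Phloem, pollen and anther, and vascular markers were also summed, to 223 to 6046, 1866 to 4757 and 344 to 1356 per library.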

Additional observations from a re-analysis of the deposited data

Results flagged for a closer look

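For 5 results the change of a carrier differed between the sexes by the test of the difference itself. From −24 to −15 hr the female minus male change on the log2 scale was 10.27 for ERD6-like 16 (XM_008440551.1), 6.49 for ERD6-like 6 (XM_008446496.1), 1.63 for monosaccharide-sensing protein 2 (XM_008449943.1) and −3.76 for sugar transport protein 14-like (XM_008467241.1). From 0 to +9 hr it was 4.16 for polyol transporter 5-like (XM_008468737.1). Groups of 2 or 3 libraries were too small for a search for single outlying libraries.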

How the results depend on the processing

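Of 76 calls of carriers over the 17 comparisons, 55 stood under every alternative and 21 were lost under at least 1, and none changed direction. The number of carriers that differed between the sexes at −24 hr went from 6 to 3 when only genes with a mean of at least 100 were tested, which leaves 10 of the 12 carriers in the test, and monosaccharide-sensing protein 2-like (XM_008466597.1), still tested, lost its call (adjusted p = 0.05). At +9 hr it went from 1 to 4 with quantile normalization and to 2 with a pseudocount of 10. For the change from 0 to +9 hr it went from 1 to 2 with quantile normalization. Without 1 library, these counts ran from 3 to 6 at −24 hr, from 0 to 1 at 0 hr, from 1 to 3 at +9 hr, from 2 to 5 for the change from −24 to −15 hr and from 0 to 1 for that from 0 to +9 hr; the cause was not tested. Genes called between the sexes at 0 hr numbered 22, and 53, 5 and 42 with median-of-ratios scaling, quantile normalization and a pseudocount of 10, and the male step from −24 to −15 hr had 467, and 293 with quantile normalization. That step had 256, 278 and 246 without male −24 hr replicates 1 or 2 or −15 hr replicate 2. Leaving out 1 library, genes called between the sexes ran from 1 (female 0 hr replicates 2 or 3, or male replicate 3) to 241 (female replicate 1) at 0 hr, and at +9 hr from 797 (male replicate 2) to 2108 (female replicate 1) against 1305. Genes whose change differed between the sexes ran from 0 to 21 against 1 for −15 to 0 hr, and from 288 (without male +9 hr replicate 2) to 1645 (without female +9 hr replicate 1) against 636 for 0 to +9 hr. Leaving out all female −24 hr libraries, chosen after seeing the data, lost 1 call, the female fall of ERD6-like 16 (XM_008440551.1) from −15 to 0 hr (adjusted p = 0.055).

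Replicate numbers were not shown to pair the libraries. In 0 of 10 comparisons of 3 pairs were all correlations of same-numbered deviations over 0.1, and in 0 did every library correlate best with its own number. In the female step from −15 to 0 hr, which has 2 pairs, both correlations were over 0.1 (0.138 and 0.192). There the block loses the limma call of ERD6-like 16 (XM_008440551.1, −1.46, adjusted p = 0.064). The second female −15 hr library is numbered 2 in its description and 3 in its title. It was paired as 2, so its pairs and the block rest on that number. With a replicate block, the count for the difference in change from 0 to +9 hr went from 1 to 0, that of all genes for −15 to 0 hr from 1 to 0, that of the female steps from −24 to −15 hr and −15 to 0 hr from 5 to 6 and from 7 to 6, and that from −24 to 0 hr in female nectaries from 8 to 9; the other counts did not change.

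Depth limits statements on carriers with values under about 10, whose fold changes depend on the pseudocount.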
